A study of Mus musculus with 6 samples.

Results

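Intestinal stem cell and Wnt response genes were examined in the descending colon of Muc2-/- mice and wild-type controls. The set was fixed by gene symbol and holds 34 genes: 10 markers of crypt base stem cells, 4 other proposed stem and progenitor markers, 6 Wnt target genes, 5 feedback inhibitors of Wnt signalling, 5 receptors and co-receptors, and the destruction complex gene Apc with 3 TCF/LEF transcription factors. All 34 had a row in the count table of 55849 genes, and 31 had enough counts to be tested, among 16107 tested genes. The 6 libraries of polyadenylated RNA comprise 3 of Muc2-/- mice and 3 of wild-type C57BL/6 mice, all 12 weeks old and without treatment. The mutated Muc2 allele is not described in the labels, which name no other allele or agent for either group. The product of Muc2 is the main structural mucin of colonic mucus, and its loss brings bacteria into contact with the epithelium and leads to colitis in mice. The comparison asks which transcripts differ between the genotypes at this age.

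The colonic epithelium is renewed from stem cells at the crypt base, which depend on Wnt signals from the surrounding mesenchyme. Wnt ligands bind Frizzled receptors with the co-receptors Lrp5 and Lrp6, the destruction complex that contains Apc then spares beta-catenin, and beta-catenin works with TCF/LEF factors at target genes. Several targets, such as Axin2, Rnf43, Znrf3 and Nkd1, encode proteins that dampen the pathway, so their transcripts are in common use as readouts of Wnt activity. R-spondins bind Lgr4 and Lgr5 and relieve the removal of Frizzled receptors by Rnf43 and Znrf3.

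Total counts ran from 16395432 to 20336459 per library. Muc2 itself was counted in both groups, with mean CPM of 4029 for wild-type and 907 for Muc2-/- (edgeR adjusted p = 0.103), where CPM are the counts as a share of the TMM-scaled library total. Markers of other layers of the gut wall were present and moved with genotype. Over 12 smooth muscle genes the summed level ran from 6164 to 21894 CPM across the wild-type libraries and from 2635 to 4722 CPM across the Muc2-/- libraries. Over 12 genes of enteric neurons and glia it ran from 98.7 to 427 CPM and from 57.9 to 96.7 CPM. Over 15 epithelial genes it ran from 13260 to 25415 CPM and from 31018 to 47021 CPM. The samples are titled as crypts while their protocols describe tissue segments, and the muscle transcripts show that the RNA was not from epithelium alone. In such bulk samples, fewer cells of a type and less RNA per cell cannot be told apart.

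In Muc2-/- colon 16 members, among them 7 of the 10 crypt base markers and 3 of the 4 tested feedback inhibitors, had every value below every wild-type value. Ets2 and Tcf7l2 had every value above. Axin2, Ascl2, Fzd7, Nkd1 and Lgr5 stood at 26.3% to 40.5% of their wild-type mean. None of these differences passed the test over all genes. edgeR's quasi-likelihood test with Benjamini-Hochberg adjustment called 0 of 31 members lower and 0 higher at an adjusted p under 0.05, where it called 0.0186% of all tested genes lower and 0.106% higher. The smallest adjusted p of a member was 0.0886. At an unadjusted p under 0.05, 14 members (45.2%) were lower and 2 higher, against 12.7% and 8.23% of all tested genes. The 3 wild-type and 3 Muc2-/- values did not overlap for 16 members that were lower (51.6%) and 2 that were higher (6.45%), against 15.2% and 13.3% of all tested genes. DESeq2 called 11 members lower (35.5%) and 0 higher, against 7.41% and 4.09% of all tested genes.

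The calls changed with 1 library, the filter and the tool. Without wild-type 3, the wild-type library with the lowest muscle level, edgeR called 7 members lower and 0 higher, against 5.68% and 1.62% of all tested genes. These were Ascl2, Smoc2, Rgmb, Hopx, Axin2, Nkd1 and Fzd7, with adjusted p from 0.0255 to 0.0498. With no other single library left out was any member called. With no filter on low counts edgeR called the same 7 members, against 3.04% of all tested genes lower and 1.43% higher.

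The median log2 fold change was -1.13 over the 4 tested feedback inhibitors, -0.95 over the 10 crypt base markers, -0.88 over the 4 other stem markers and -0.54 over the 5 tested Wnt targets. It was -0.09 over the 5 receptors and co-receptors and 0.08 over the 3 tested nuclear and destruction complex genes, beside -0.01 over all tested genes. No test of a difference between roles was made, and the order of these medians changed with the fit. With the smooth muscle level as a covariate the medians were -0.65 for the other stem markers and -0.40 for the receptors. Crypt base markers and Wnt targets both had -0.30, feedback inhibitors had -0.26, and nuclear and destruction complex genes had -0.19. The median of all tested genes was 0.05 in that fit. For log2(FPKM + 1) the medians were -0.29 for the inhibitors and -0.42 for the targets, and for log2(FPKM + 0.1) -0.80 and -0.51. Of the 31 tested members 23 had a negative log2 fold change, against 50.9% of all tested genes, and 9 lay below -1, against 13.8%.

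**Figure D1:**
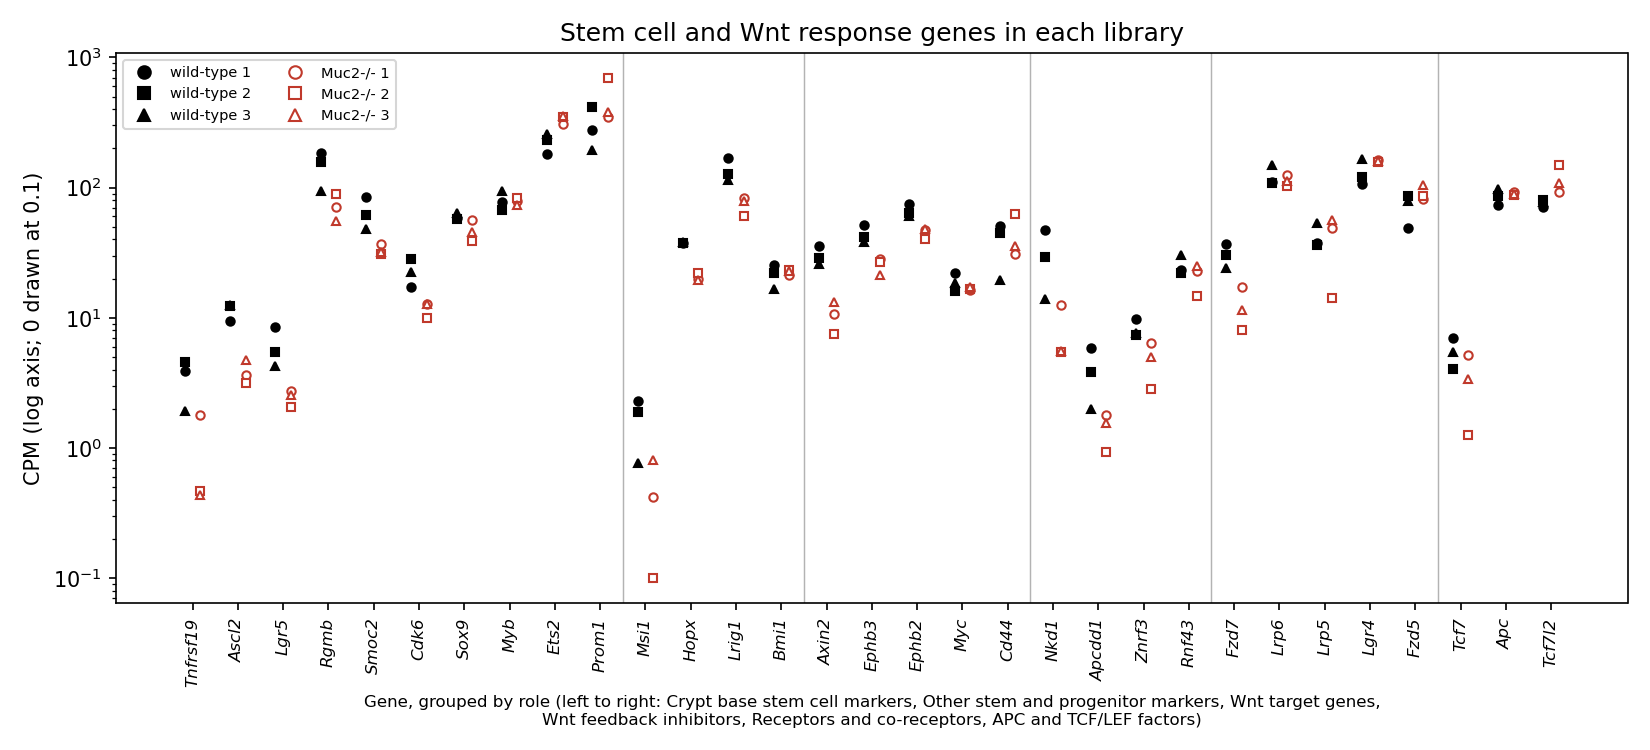
CPM of the 31 tested stem cell and Wnt response genes (log axis, 0 drawn at 0.1) in each of the 3 wild-type (filled) and 3 Muc2-/- libraries (open), grouped by role with vertical lines between roles. The open symbols lie wholly below the filled ones in 16 genes, Axin2, Ascl2 and Hopx among them, and wholly above in Ets2 and Tcf7l2.

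Promoter windows were matched by symbol for 23 of the 34 members in RefSeq sequences of GRCm38.p6, from 250 bases before to 50 after each start. Motifs were searched on both strands, and a gene counted if any of its windows held the motif. The matched members had 34 windows and all 27025 genes had 32851, so more sequence was searched per member than per gene. The TCF/LEF motif CTTTGAT lay in the windows of 2 members, Tnfrsf19 and Sp5, 8.70% of the matched members against 4.29% of all 27025 genes. Its shorter core CTTTGA, which the longer motif contains, lay in 4 members, Lef1, Prom1, Sp5 and Tnfrsf19, 17.4% against 18.2%. The GC box GGGCGG lay in 16 members, 69.6% against 38.2%, and the E-box CAGCTG in 6, 26.1% against 18.3%. The median GC content of the windows was 64.8% for members and 52.7% for all. The 250 bases before the start are shown for Ascl2 and Axin2, the lower members with the smallest p, and for the windows that hold the longer TCF/LEF motif. They lie at chr7:142969265-142969514 (minus strand, Ascl2), chr11:108920099-108920348 (plus strand, Axin2), chr14:61037988-61038237 (minus strand, Tnfrsf19) and chr2:70474673-70474922 (plus strand, Sp5), written 5′ to 3′ with the GC boxes and the longer TCF/LEF motif in capitals.
Ascl2: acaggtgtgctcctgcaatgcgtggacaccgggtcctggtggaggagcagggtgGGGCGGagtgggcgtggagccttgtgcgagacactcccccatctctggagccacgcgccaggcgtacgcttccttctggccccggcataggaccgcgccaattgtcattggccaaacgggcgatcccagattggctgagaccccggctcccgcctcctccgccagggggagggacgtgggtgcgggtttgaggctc
Axin2: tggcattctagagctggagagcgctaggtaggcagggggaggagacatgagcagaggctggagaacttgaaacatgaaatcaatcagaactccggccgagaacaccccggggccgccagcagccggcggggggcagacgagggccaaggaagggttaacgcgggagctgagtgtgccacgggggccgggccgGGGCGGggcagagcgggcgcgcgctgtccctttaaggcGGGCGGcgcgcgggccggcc
Tnfrsf19: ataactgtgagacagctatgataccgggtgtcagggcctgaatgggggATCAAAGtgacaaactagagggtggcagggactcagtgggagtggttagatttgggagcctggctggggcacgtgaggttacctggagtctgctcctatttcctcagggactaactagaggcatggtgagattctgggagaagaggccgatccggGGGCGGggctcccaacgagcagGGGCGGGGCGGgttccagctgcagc
Sp5: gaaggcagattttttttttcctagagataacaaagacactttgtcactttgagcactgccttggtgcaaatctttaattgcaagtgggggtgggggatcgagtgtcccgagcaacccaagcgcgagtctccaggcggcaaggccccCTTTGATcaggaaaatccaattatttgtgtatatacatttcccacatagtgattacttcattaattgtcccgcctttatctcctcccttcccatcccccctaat
The longer motif begins 202 bases before the start in Tnfrsf19, where it is read on the opposite strand, and 104 in Sp5. Ascl2 has 1 GC box and Axin2 has 2, and neither has the TCF/LEF core in these bases, which says nothing of sites elsewhere in the genes.

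Among the crypt base markers, Ascl2, a transcription factor that controls the stem cell state, had the smallest p. It lies on chromosome 7 from 142520566 to 142523001 on the minus strand in the coordinates of the count table, which are not those of GRCm38. Ascl2 had 9.47, 12.2 and 12.5 CPM in wild-type 1, 2 and 3 and 3.63, 3.17 and 4.70 CPM in Muc2-/- 1, 2 and 3. Every mutant value lay below every wild-type value, and the means were 11.4 ± 1.68 and 3.83 ± 0.783 CPM (SD, n = 3 each; log2 fold change -1.57, SE 0.30, edgeR adjusted p = 0.0962). Ascl2 was among the 7 members that DESeq2, edgeR with no filter on low counts and edgeR without wild-type 3 all called lower.

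Lgr5, the R-spondin receptor that marks crypt base stem cells, was sparse, with 31 to 153 counts per library. It had 8.47, 5.42 and 4.29 CPM in wild-type and 2.74, 2.05 and 2.53 CPM in Muc2-/- (log2 fold change -1.31, SE 0.39, edgeR adjusted p = 0.126). The groups did not overlap, and the lowest wild-type library was wild-type 3.

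Smoc2, a secreted matrix protein used as a stem cell marker, had 85.2, 61.2 and 48.4 CPM in wild-type and 37.0, 30.9 and 32.1 CPM in Muc2-/- (log2 fold change -0.96, SE 0.24, edgeR adjusted p = 0.103). Rgmb, a co-receptor of the bone morphogenetic protein pathway, had 184, 158 and 93.3 CPM and 70.3, 88.6 and 55.8 CPM (log2 fold change -1.02, SE 0.29, edgeR adjusted p = 0.121). Cdk6, a cyclin-dependent kinase of G1 phase, had 17.3, 28.1 and 22.4 CPM and 12.7, 9.91 and 12.8 CPM (log2 fold change -0.93, SE 0.25, edgeR adjusted p = 0.111). In all 3 genes the groups were separate, with wild-type 1 or 2 the highest of the 6 libraries. Tnfrsf19, a receptor of the tumour necrosis factor family also called Troy, had 3.88, 4.59 and 1.91 CPM in wild-type and 1.79, 0.463 and 0.433 CPM in Muc2-/- (log2 fold change -1.94, SE 0.68, edgeR adjusted p = 0.168). Its wild-type 3 and Muc2-/- 1 values were nearly equal, and 7 counts each lay behind the lowest values.

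The remaining 4 crypt base genes differed less or in the other direction. Ets2, a transcription factor of the ETS family, was higher in every mutant library, with 310.1, 347 and 357 CPM against wild-type values of 183, 231 and 258 CPM (log2 fold change 0.59, SE 0.21, edgeR adjusted p = 0.169). Prom1, a membrane glycoprotein also called CD133 and the most abundant member per length, spanned 196 to 413 CPM and 351 to 695 CPM, with overlap and its highest value in Muc2-/- 2 (log2 fold change 0.69). Myb, a transcription factor of progenitor cells, had a log2 fold change of -0.02 with an SE of 0.18. Sox9, a transcription factor of the crypt base, spanned 57.2 to 63.8 CPM and 39.2 to 55.8 CPM, lower in every mutant library without overlap (log2 fold change -0.35). These 4 genes stood at 78.7% to 161% of their wild-type mean.

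Hopx and Lrig1, proposed markers of slowly cycling or reserve stem cells, were lower in all mutant libraries. Hopx, a homeodomain-only protein (chromosome 5, 77234835 to 77262968, minus strand), was the steadiest of the lower members, with wild-type values of 37.7, 37.7 and 38.3 CPM and mutant values of 19.9, 22.1 and 19.5 CPM (log2 fold change -0.89, SE 0.17, edgeR adjusted p = 0.0962). Its means of 37.9 ± 0.367 and 20.5 ± 1.36 CPM (SD, n = 3 each) were far apart beside the spread of each group. Lrig1, an inhibitor of epidermal growth factor receptor signalling, had 168, 128 and 113 CPM and 83.5, 61.0 and 79.0 CPM (log2 fold change -0.87, SE 0.22, edgeR adjusted p = 0.104). The RNA-binding protein gene Msi1 was sparse, with 93 counts over the wild-type and 20 over the Muc2-/- libraries, 0 of them in Muc2-/- 2, and its groups overlapped. Bmi1, a polycomb protein gene, spanned 16.7 to 25.4 CPM and 21.2 to 23.4 CPM (log2 fold change 0.08, SE 0.22).

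Axin2, a scaffold of the destruction complex and a widely used reporter of Wnt activity, had the smallest p of all members. It lies on chromosome 11 from 108811175 to 108841609 on the plus strand in the count table. Axin2 had 35.4, 28.8 and 26.1 CPM in wild-type 1, 2 and 3 and 10.7, 7.53 and 13.2 CPM in Muc2-/- 1, 2 and 3. The highest mutant value was below the lowest wild-type value, and the means were 30.1 ± 4.82 and 10.5 ± 2.85 CPM (SD, n = 3 each; log2 fold change -1.52, SE 0.27, edgeR adjusted p = 0.0886, DESeq2 adjusted p = 4.07e-05).

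The Eph receptors that sort cells along the crypt axis lay lower by a smaller amount. Ephb3 had 51.6, 41.5 and 38.1 CPM in wild-type and 28.1, 26.9 and 21.4 CPM in Muc2-/- (log2 fold change -0.78, SE 0.20, edgeR adjusted p = 0.106). Ephb2 had 74.2, 63.2 and 60.3 CPM and 46.9, 40.2 and 48.4 CPM (log2 fold change -0.54, SE 0.17, edgeR adjusted p = 0.141). Neither gene's groups overlapped. Myc and Cd44, targets with many other inputs, overlapped between groups. Myc, a growth-promoting transcription factor, spanned 16.2 to 22.0 CPM and 16.4 to 17.4 CPM (log2 fold change -0.17, SE 0.21), and Cd44, a hyaluronan receptor also found on leukocytes, spanned 19.5 to 51.1 CPM and 31.0 to 62.4 CPM (log2 fold change 0.16, SE 0.40). Sp5, a transcription factor induced by Wnt, had 3 counts over wild-type and 12 over Muc2-/-, 10 of them in Muc2-/- 2, and was not tested.

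**Figure D2:**
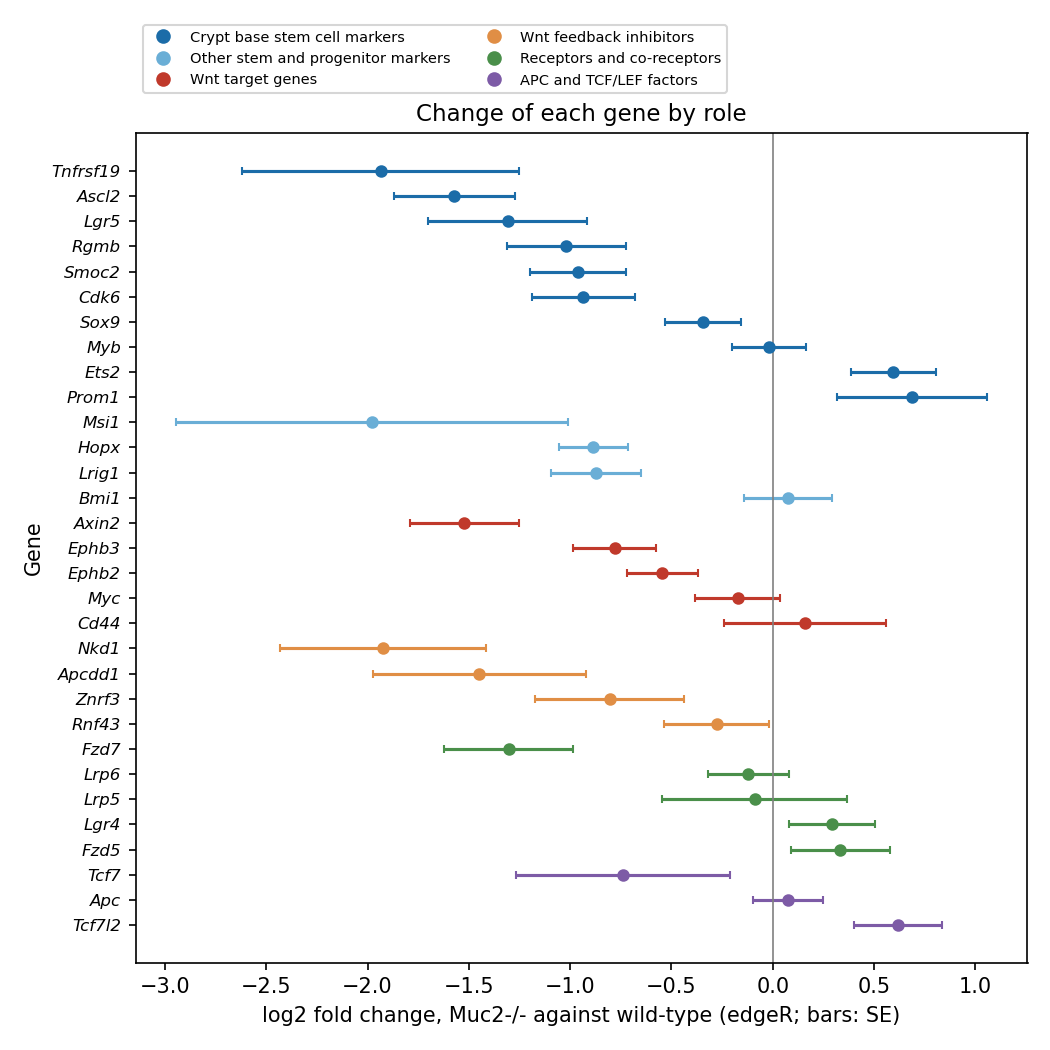
Log2 fold change of Muc2-/- against wild-type for the 31 tested genes (edgeR; bars are the SE), ordered within each role and coloured by role. All 4 feedback inhibitors lie left of 0, from -1.92 for Nkd1 to -0.28 for Rnf43, as do 8 of the 10 crypt base markers, from -1.94 for Tnfrsf19 to -0.02 for Myb, while Lgr4, Fzd5, Apc, Tcf7l2, Ets2, Prom1, Cd44 and Bmi1 lie right of it.

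Among the feedback inhibitors, Nkd1, which binds Dishevelled, had 46.9, 29.0 and 14.02 CPM in wild-type and 12.6, 5.48 and 5.56 CPM in Muc2-/- (log2 fold change -1.92, SE 0.51, edgeR adjusted p = 0.106). The groups were separate, but wild-type 3 was nearer to Muc2-/- 1 than to wild-type 1. Apcdd1, a membrane inhibitor of Wnt signalling, had 5.82, 3.86 and 2.00 CPM and 1.79, 0.925 and 1.55 CPM, again with wild-type 3 next to Muc2-/- 1 (log2 fold change -1.45, SE 0.53, edgeR adjusted p = 0.177). The ubiquitin ligase genes Znrf3 and Rnf43 had log2 fold changes of -0.80 (SE 0.37) and -0.28 (SE 0.26). Znrf3 spanned 7.40 to 9.80 CPM and 2.84 to 6.37 CPM, without overlap, and Rnf43 spanned 22.2 to 30.3 CPM and 14.7 to 24.8 CPM, with overlap. Notum, a secreted enzyme that inactivates Wnt ligands, had 11, 10 and 2 counts in wild-type and 0, 0 and 2 counts in Muc2-/-, too few for the test.

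Of the receptors, the Frizzled gene Fzd7 alone had separate groups. It had 36.8, 30.2 and 24.0 CPM in wild-type and 17.3, 8.06 and 11.5 CPM in Muc2-/- (log2 fold change -1.30, SE 0.32, edgeR adjusted p = 0.103). Fzd5, a Frizzled receptor of intestinal epithelium, spanned 49.1 to 86.4 CPM and 81.5 to 104 CPM (log2 fold change 0.33, SE 0.24). Lgr4, the R-spondin receptor related to Lgr5, spanned 107 to 165 CPM in wild-type and 158 to 163 CPM in Muc2-/- (log2 fold change 0.29, SE 0.21). The co-receptors Lrp5 and Lrp6 had log2 fold changes of -0.09 (SE 0.46) and -0.12 (SE 0.20). Lrp5 stood at 14.1 CPM in Muc2-/- 2 and at 49.2 and 56.5 CPM in the other mutant libraries.

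Tcf7l2, the main TCF factor of intestinal epithelium, was higher in every mutant library, with 92.9, 150.1 and 109 CPM against wild-type values of 71.2, 80.9 and 77.2 CPM (log2 fold change 0.62, SE 0.22, edgeR adjusted p = 0.167). Tcf7, also expressed by T cells, spanned 4.07 to 6.92 CPM and 1.26 to 5.18 CPM (log2 fold change -0.74, SE 0.53). Apc spanned 74.0 to 96.8 CPM and 87.2 to 93.1 CPM (log2 fold change 0.08, SE 0.17). Lef1 had 15 counts over wild-type and 38 over Muc2-/- and was not tested. The T and NK cell list, beside which Tcf7 and Lef1 may be read, summed over its 12 genes to 6.06 to 15.01 CPM for wild-type and 11.5 to 30.8 CPM for Muc2-/-, and its part in their values was not tested.

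Levels of different genes can be compared per length, in the deposited FPKM (counts divided by gene length and scaled library total). In wild-type the highest means were those of Prom1 (40.6 ± 14.7 FPKM) and Ets2 (38.5 ± 7.41 FPKM), which did not differ beyond their SD, followed by Hopx (24.8 ± 0.835), Lrig1 (24.1 ± 4.46) and Lgr4 (22.1 ± 5.73), which did not differ beyond theirs. Lgr5 lay at rank 29 of 34, at 0.582 ± 0.195 FPKM, and Axin2 at rank 19, at 5.40 ± 0.749 FPKM. In Muc2-/- Ascl2 moved from rank 13 to rank 22, with 6.97 ± 1.16 and 2.37 ± 0.473 FPKM, and Tcf7l2 from rank 12 to rank 6.

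Related pairs were set side by side on the same scale. Lgr5 ran at 1.49% to 4.54% of the FPKM of Lgr4 in wild-type and at 0.745% to 0.962% in Muc2-/-. Fzd7 ran at 46.0% to 114% of Fzd5 and at 14.4% to 32.3%. In both pairs the ratio of every mutant library was below that of every wild-type library. The ratios of Znrf3 to Rnf43 (21.1% to 35.3% and 16.1% to 23.2%), of Tcf7 to Tcf7l2, of Lrp5 to Lrp6 and of Ephb3 to Ephb2 overlapped between the groups.

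Within the wild-type group some of the lower members also followed the muscle level. The mean log2 CPM of the smooth muscle list was 9.71 in wild-type 1, 9.0 in wild-type 2 and 7.93 in wild-type 3, and it was 7.58, 7.21 and 6.70 for the mutants in the same numbering. The tested feedback inhibitors had wild-type means of 3.99, 3.56 and 3.20 beside mutant means of 2.95, 2.00 and 2.56, and the tested Wnt targets had 5.44, 5.15 and 4.88 beside 4.56, 4.61 and 4.61. Of the 16 members with separate, lower mutant values, 11 had their highest wild-type value in wild-type 1 and 11 had their lowest in wild-type 3. The same shares over all tested genes were not taken. Ascl2, Hopx and Sox9 had their highest wild-type value in wild-type 3, where the muscle level was lowest. In the mutants the muscle level was lowest in Muc2-/- 3, whereas 12 of the 16 were lowest in Muc2-/- 2. That share over all tested genes was not taken either. The crypt base markers, with 5.42, 5.49 and 5.16 beside 4.82, 4.63 and 4.61, did not keep the muscle order within wild-type. All 12 muscle genes and all 12 neural genes had a negative log2 fold change (medians -1.72 and -2.14), all 15 epithelial genes a positive one (median 0.77), and 14 of 16 proliferation genes a positive one (median 0.52). Of 12 stromal genes 11 were negative (median -0.53), and all 13 tested myeloid genes were positive (median 1.27), with summed levels over 14 genes of 266 to 544 CPM for wild-type and 730 to 1291 CPM for Muc2-/-. Mitochondrially encoded genes took 8.98%, 5.30% and 3.49% of wild-type counts, in the order of the muscle level, and 3.50%, 1.036% and 3.30% of mutant counts. The part of stroma, myeloid cells and mitochondrial share in the members' values was not tested.

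**Figure D3:**
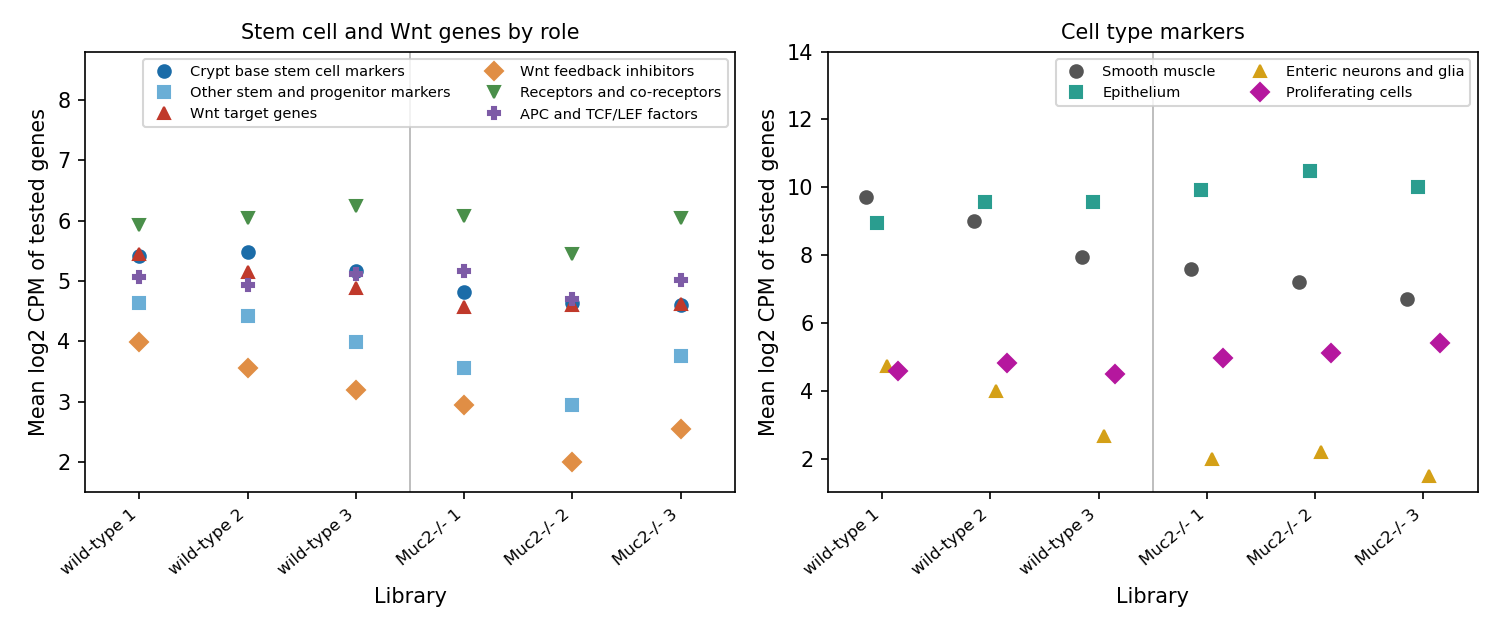
Mean log2 CPM of the tested genes of each role (left) and of 4 cell type lists (right) in the 6 libraries, with a vertical line between wild-type and Muc2-/-. The feedback inhibitors go from 3.99 in wild-type 1 to 3.20 in wild-type 3 beside the smooth muscle list, which goes from 9.71 to 7.93, while epithelial markers are lowest in wild-type 1.

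A fit was made with the mean smooth muscle level as a covariate. In this fit the 16 members with separate, lower mutant values had log2 fold changes from -2.02 to -0.04. The SEs were too large to tell many of these genes apart. With the covariate, Ascl2 had a log2 fold change of -2.02 (SE 0.47) and Axin2 of -1.33 (SE 0.48). Cdk6 had -1.15 (SE 0.45) and Hopx -0.89 (SE 0.31). These 4 were close to or beyond their values without the covariate. Nkd1 went from -1.92 to -0.05 (SE 0.45), Apcdd1 from -1.45 to -0.08 (SE 0.79) and Rgmb from -1.02 to -0.04 (SE 0.39). Tnfrsf19 went from -1.94 to -0.39 (SE 0.95), Smoc2 from -0.96 to -0.24 (SE 0.31) and Lgr5 from -1.31 to -0.48 (SE 0.59). In between, Fzd7 went from -1.30 to -0.62, Lrig1 from -0.87 to -0.42 and Ephb3 from -0.78 to -0.30. Znrf3 went from -0.80 to -0.45 and Ephb2 from -0.54 to -0.35. Sox9 was also close to its value without the covariate, with -0.36 (SE 0.34) beside -0.35. At an unadjusted p under 0.05 the same 4 genes, Ascl2, Axin2, Cdk6 and Hopx, were lower in this fit and 0 members were higher, against 0.925% and 1.91% of all tested genes. edgeR called 0 genes after adjustment in it. No mutant library reached the muscle level of a wild-type library, the covariate therefore also takes up difference by genotype, and the 2 cannot be fully told apart.

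**Figure D4:**
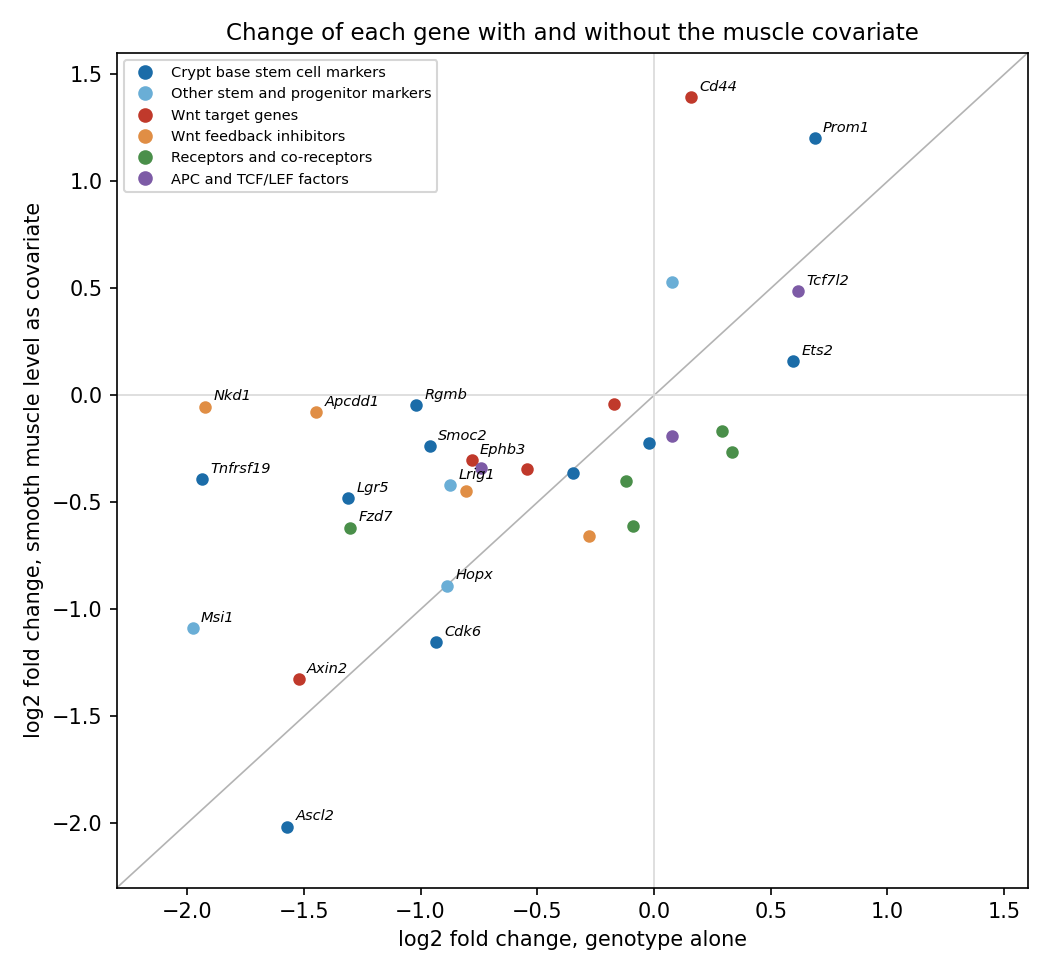
Log2 fold change of each tested gene with genotype alone (horizontal) and with the smooth muscle level as covariate (vertical), with the diagonal of equality. Axin2, Cdk6 and Hopx lie near the diagonal and Ascl2 below it, whereas Nkd1 (-0.05), Apcdd1 (-0.08) and Rgmb (-0.04) lie near 0 on the vertical axis. The SEs of the vertical values are not drawn, and reach 0.79 for Apcdd1 and 0.95 for Tnfrsf19.

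Wild-type 3 and Muc2-/- 1 had the nearest muscle levels across the genotypes, and their values were compared as single libraries, a choice made after the data were seen. Ascl2 in Muc2-/- 1 stood at 29.0% of wild-type 3 (95% exact binomial interval 21.6% to 38.4%, which covers counting error only), Axin2 at 40.9% (34.3% to 48.5%), Hopx at 52.0% (45.7% to 59.2%) and Cdk6 at 57.0% (48.2% to 67.1%). Nkd1 stood at 90.04% (75.1% to 108%), Apcdd1 at 89.2% (53.9% to 146%) and Tnfrsf19 at 93.6% (56.3% to 154%). Lgr5 stood at 63.8% (43.7% to 92.0%), Fzd7 at 72.0% (62.1% to 83.3%), Smoc2 at 76.5% (69.1% to 84.6%) and Rgmb at 75.4% (70.0% to 81.0%). With 1 library of each genotype, both also part of the fit with the covariate, these values have no replicate check and separate no group of genes from another.

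Library sizes set to the summed counts of 15 epithelial genes moved the median of all tested genes to -0.95. On that scale edgeR called 13 members lower and 0 higher, against 11.9% and 0.391% of all tested genes. Relative to the shifted median the values were close to those of the TMM scale, with -2.47 for Axin2, -2.43 for Ascl2 and -1.84 for Hopx. All 31 members had a negative value on it, Prom1 (-0.35), Ets2 (-0.29) and Tcf7l2 (-0.36) among them, all of which lay above the median of all genes.

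Other genes of the pathway gave 0 calls in edgeR. Of 54 tested Wnt receptors, transducers and inhibitors outside the set, 16 were lower and 3 higher at an unadjusted p under 0.05, against 12.7% and 8.23% of all tested genes, and DESeq2 called 10 lower and 0 higher, against 7.41% and 4.09% (median -0.46). Tle3, a Groucho corepressor of TCF factors, had 64.3, 66.5 and 46.3 CPM in wild-type and 28.8, 25.5 and 25.0 CPM in Muc2-/- (log2 fold change -1.16, SE 0.20, edgeR adjusted p = 0.0868). Dact3, an antagonist that binds Dishevelled, had 77.4, 49.8 and 20.9 CPM and 16.02, 6.81 and 8.53 CPM (log2 fold change -2.24, edgeR adjusted p = 0.103), in the order of the muscle level within wild-type. Ctnnb1, which encodes beta-catenin and was named after its value was seen, had a log2 fold change of 0.28 (SE 0.24).

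Of 23 Wnt ligand and R-spondin genes 9 had enough counts to be tested, of which 2 were lower and 1 higher unadjusted (median -0.71), beside the same shares of all tested genes. Wnt9a had 1.99, 1.25 and 1.67 CPM in wild-type and 0.714, 0.198 and 0.185 CPM in Muc2-/- (edgeR adjusted p = 0.135), and the R-spondin gene Rspo1 had 4.38, 2.08 and 1.19 CPM and 0.834, 0.264 and 0.618 CPM (edgeR adjusted p = 0.141). Of 15 tested further stem cell signature genes, 3 were lower and 1 higher unadjusted, against 12.7% and 8.23% of all tested genes (median -0.31). DESeq2 called 2 of the signature genes lower, against 7.41% of all tested genes. Those with the smallest p were Rnf32, at 8.75, 8.55 and 7.63 CPM and 3.93, 3.04 and 2.35 CPM (log2 fold change -1.42, edgeR adjusted p = 0.103), and the RNA-binding protein gene Mex3a, at 4.76, 4.27 and 3.91 CPM and 1.55, 1.92 and 1.73 CPM (log2 fold change -1.31, edgeR adjusted p = 0.115).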

How the data were processed

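The authors deposited a table of raw counts per gene and a table of FPKM for the same 6 libraries, whose group and replicate number come from their titles. The submitters' processing notes list featureCounts 1.5.0-p3, HISAT2 2.0.5, DESeq2 1.20.0, StringTie 1.3.3b and the build mm10, with no role. For strand, the setting used in counting was not given in the sources used here, which leaves overlapping and antisense genes mixed. Deposited FPKM equal counts over listed gene length and over the library total times 0.860 to 1.14. By identifier 34 members were in GENCODE M21, 32 with equal width and 0 with equal start and end, so the count table uses another assembly.

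Genotype was tested on counts with edgeR 4.0.16 (R 4.3.3) by TMM factors, filterByExpr (minimum count 10, minimum total 15) and the quasi-likelihood test, adjusted by Benjamini-Hochberg over all tested genes, with 0.05 as threshold. Each SD is over 3 libraries. Mean log2 CPM used a prior count of 2. The labels do not tie replicates to separate animals, so p-values cover the spread between libraries, which may be technical. Chi-square per degree of freedom between replicates was 25.0 to 148, and none was merged. Members and lists were chosen with earlier results of these data known. Full statistics are given for the 16 members of smallest p that reach 1 CPM in a group, and each pathway list is shown by its 2 genes of smallest p. Alternative fits changed the composition factors, the filter, the tool (DESeq2 1.42.0, limma-voom with limma 3.58.1, limma on log2 FPKM), the threshold and the libraries, or added the replicate block, a muscle covariate or epithelial scaling. Leaving out wild-type 1 together with Muc2-/- 2 was added after seeing the data. Simulated counts for this comparison (15756 genes tested) gave recovery of 7.46% at 2-fold, 88.1% at 4-fold and 100% at 16-fold change, with 8 false among 138 calls. At these folds 67, 67 and 66 genes were changed, all drawn from better counted genes, with no shared muscle gradient. The recovery therefore does not carry over to sparse members such as Tnfrsf19, Msi1 and Apcdd1.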

Additional observations from a re-analysis of the deposited data

How the results depend on the processing

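The direction of the 16 members with separate, lower mutant values was negative under every alternative that gave a value. Outside the muscle covariate that sign was largely fixed in advance, because the 16 were picked for lying lower in every mutant library. The fit with the muscle covariate used the same libraries, so its signs are no independent check. Some of its values were smaller than their SE, among them Rgmb (-0.04, SE 0.39), Nkd1 (-0.05, SE 0.45) and Apcdd1 (-0.08, SE 0.79). edgeR called 7 members lower with no filter on low counts (384 genes higher and 815 lower, 1.43% and 3.04% of those tested) and 13 when scaled to epithelium (63 and 1923), and DESeq2 called 11 (659 and 1193). Member calls stayed at 0 lower and 0 higher with RLE (22 and 5 genes over all), upper-quartile and no composition factors (7 and 1), a stricter filter, limma-voom (11 and 2), log2(FPKM + 1) (41 and 11), log2(FPKM + 0.1) (40 and 11), a minimum of 1 FPKM in 3 libraries (44 and 10), the muscle covariate (0 and 0), an adjusted p under 0.01 (0 and 0) and without wild-type 1 and Muc2-/- 2 (1 and 0).

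With the replicate block edgeR called 4 members lower, Ascl2, Axin2, Nkd1 and Fzd7 (225 genes higher and 448 lower over all). The titles give no shared origin for equal numbers. Deviations of same-numbered libraries correlated at 0.09, 0.28 and 0.06, and those of other pairs ran from -0.25 to 0.07. Wild-type 1 and wild-type 2 correlated best with the mutant library of the same number. Wild-type 3 correlated best with Muc2-/- 1, at 0.07. These values do not decide whether the samples are paired, and the main fit used no replicate block.

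Unadjusted, 23 members were lower and 0 higher when scaled to epithelium, where 0 had separate, higher values. That scale moves the median of all tested genes to -0.95. The unadjusted share of all tested genes on that scale was not taken, so the 23 are no result about the members. With the muscle covariate 4 were lower and 0 higher, against 0.925% and 1.91% of all tested genes. With no composition factors 0 were higher, with no share taken. The crypt base median was -0.42 for log2(FPKM + 1), -0.40 with a minimum of 1 FPKM, -1.13 with no composition factors, -1.88 scaled to epithelium, -0.30 with the muscle covariate and -0.77 without wild-type 1 and Muc2-/- 2. The inhibitor median was -0.29 for log2(FPKM + 1), -2.10 scaled to epithelium, -0.26 with the muscle covariate and -0.61 without those 2 libraries. Scaled to epithelium, the medians were -1.84 for the other stem markers, -1.50 for targets, -0.87 for receptors and -0.81 for nuclear and destruction complex genes, and the last was 0.35 with no filter, where Lef1 enters, and -0.19 with the muscle covariate. For log2(FPKM + 0.1) the medians were -0.86 for the crypt base markers and -0.80 for the inhibitors, nearer to those of the main fit than for log2(FPKM + 1). Beyond these values the cause of the shifts was not tested.

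Several members changed sign. Bmi1 had -0.00095 with upper-quartile factors, -0.12 with no composition factors and -0.93 scaled to epithelium. Cd44 had -0.061 and -0.97 in the latter fits, and Apc -0.10 and -0.81, with -0.19 under the muscle covariate. Myb had 0.0103, 0.0125 and 0.0103 for log2(FPKM + 1), log2(FPKM + 0.1) and with a minimum of 1 FPKM. Lgr4 and Fzd5 had -0.17 and -0.26 with the muscle covariate and -0.58 and -0.51 scaled to epithelium, where Prom1 had -0.35, Ets2 -0.29 and Tcf7l2 -0.36. Scaling to epithelium moves the median of all tested genes to -0.95, so a sign on that scale is set by the scaling, and all 3 lie above that median. Lrp5 had 0.23 without wild-type 1 and Muc2-/- 2.

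With each library left out, called genes ran from 0 to 272 higher and from 0 to 954 lower. Called members ran from 0 to 7 lower with 0 higher. Unadjusted members ran from 12 to 15 lower and 0 to 3 higher, and separate members from 16 to 18 lower and 2 to 4 higher. Small shifts in scaling apart, leaving out a library cannot undo a separation, so the lower ends of 16 and 2 were set in advance. The shares of all tested genes in the unadjusted and separate counts of these fits were not taken. Medians ran from -1.03 to -0.76 (crypt base), -0.92 to -0.80 (other stem markers), -0.60 to -0.44 (targets), -1.35 to -0.85 (inhibitors), -0.19 to 0.32 (receptors) and 0.059 to 0.41 (nuclear). In the same fits these members changed sign: Apc ran from -0.020 to 0.18, Myb from -0.12 to 0.12, Bmi1 from -0.065 to 0.22, Cd44 from -0.18 to 0.42, Lrp5 from -0.41 to 0.33 and Lrp6 from -0.21 to 0.052. Lgr5, Tnfrsf19, Apcdd1 and Msi1 rest on the fewest counts.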

Other observations

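The library Muc2-/- 2 stood apart for several genes of the pathway, named here after their values were seen. It held the lowest mutant value for 19 of the 31 tested members, and for 12 of the 16 with separate, lower mutant values. The same shares over all tested genes were not taken, so these counts are no result about the members. Muc2-/- 2 also stood apart beyond the pathway. Across genes, chi-square per degree of freedom was 130 against Muc2-/- 1 and 127 against Muc2-/- 3, beside 25.0 between Muc2-/- 1 and Muc2-/- 3. Tcf7l1, a repressive TCF factor, had 47.8, 7.14 and 34.6 CPM in Muc2-/- 1, 2 and 3 and 35.8, 21.0 and 49.5 CPM in wild-type. Gsk3a, a kinase of the destruction complex, had 56.6, 22.4 and 61.0 CPM and 47.5, 57.4 and 49.9 CPM. Tcf7 had 5.18, 1.26 and 3.40 CPM in Muc2-/- 1, 2 and 3. Prom1 and Cd44 had their highest values of all 6 libraries in Muc2-/- 2.

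Wnt4, a ligand also named after its values were seen, had 1.94, 2.29 and 4.39 CPM in wild-type and 5.12, 9.18 and 6.37 CPM in Muc2-/- (log2 fold change 1.26, SE 0.44, edgeR adjusted p = 0.166). Kremen2, a receptor for Dickkopf inhibitors, had 9.08, 10.4 and 18.2 CPM and 18.3, 32.4 and 22.4 CPM (log2 fold change 0.96, SE 0.34, edgeR adjusted p = 0.171). In both genes every mutant value lay above every wild-type value, with wild-type 3 the nearest to the mutant libraries.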
